A study of Arabidopsis thaliana with 13 samples.

Results

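Small RNA of inflorescences on day 4 of floral induction was compared with that of inflorescences on day 2. The comparison covers the miRNA genes with at least 1 RPM (reads per 1000000 mapped reads of the library) in at least 2 of the 5 libraries of these days, which were 119 of the 325 miRNA genes in the deposited table. Of the other 206 genes, 73 were above 0 in at least 1 of the 5 libraries and 133 were at 0 in all of them. A gene among these need not be at a low level, since reads of a mature sequence shared by several loci cannot be placed at 1 of them. Just inside the minimum were MIR160b, MIR166b, MIR166e, MIR167b and MIR416, whose second-highest value among the 5 libraries was 1.08 RPM. Just outside it were MIR5633 and MIR838 at 0.933 RPM and MIR157c, MIR169c and MIR169i at 0.735 RPM.

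The study sequenced small RNA through a course of synchronous flower formation in Arabidopsis, in order to relate miRNA levels to the floral regulatory network. All plants compared were of ecotype Landsberg and genotype pAP1:AP1:GR ap1 cal, in which the ap1 and cal mutations hold the inflorescence as a mass of meristems until an AP1 fusion protein, driven by the AP1 promoter, is released into the nucleus by dexamethasone (DEX). Inflorescences were treated with DEX and harvested on day 2 (n = 3) and on day 4 (n = 2), and untreated inflorescences of day 0 (n = 2) and treated ones of day 8 (n = 3) entered the same fit. Replicate 1 of day 2 has a time label of 0 days although it is titled day 2 and given as DEX-treated, and it was kept as day 2. The DEX dose differs between the study's methods (2 µM) and the sample labels (2 mM). The deposited run sheet places day 0 and day 2 in 1 sequencing run and day 4 and day 8 in another, so that day and run cannot be told apart among the libraries compared. The sheet also lists 2 columns in the run of day 4 that are named as repeats of day 2 replicates 1 and 2. They match no sample in the labels and were not used, and no within-run value of day 4 against day 2 is given. The labelled tissue could not be checked against marker genes, since the table holds miRNA genes alone. In such bulk samples, fewer cells of a type and less RNA per cell cannot be told apart.

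Plant miRNAs are cut from hairpin precursors by DICER-LIKE1, loaded into ARGONAUTE1 and guide the cleavage or repression of mRNAs to which they are almost fully complementary. Many of the conserved families act on transcription factors, and in the flower they set the timing and boundaries of organ growth: miR319 and miR159 act on TCP and MYB factors, miR164 on the NAC factors of organ boundaries, miR167 on auxin response factors of stamens and ovules, and miR172 on APETALA2. A family is often encoded by several loci with the same or nearly the same mature sequence, and a short read can then be placed at 1 locus only through a base at its end.

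The estimated number of mapped reads was 1360793 to 2142752 in the day 2 libraries and 926300 and 1702671 in the day 4 libraries, and 2.28 to 2.96% of them were counted for miRNA genes. The libraries correlated at 0.963 to 0.975 within a day and at 0.898 to 0.932 between the days (Pearson r of log2(RPM + 1) over the 119 genes). The 10 most abundant genes took 93.9 to 96.0% of the counted reads, and 60 of the 119 genes had fewer than 10 estimated reads in each of the 5 libraries. MIR158a alone took 23.4 to 26.0% on day 2 and 31.7 to 32.9% on day 4.

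8 of the 119 genes were called higher on day 4 (6.72%) and 11 were called lower (9.24%), by limma on log2(RPM + 1) with an adjusted p under 0.05. The libraries of the 2 days did not overlap for 48 genes (40.3% of those tested), 27 of them higher and 21 lower on day 4, and all 19 called genes were among the 48. The median log2 fold change over the 119 genes was 0.05, with 62 genes above 0 and 57 below it. 12 of the 19 called genes changed by more than 1 on the log2 scale. MIR164a, MIR167d and MIR8174 were at 0 on day 4 and met the minimum of 1 RPM through day 2 alone. MIR5656 was at 0 on day 2 and met it through day 4 alone. The calls and fold limits of these genes are thus of members let in by the day on which they were high. The lower calls reached further (down to -4.49) than the higher calls (up to 1.82). A fold change on the log2(RPM + 1) scale understates the change of genes of a few RPM.

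**Figure D1:**
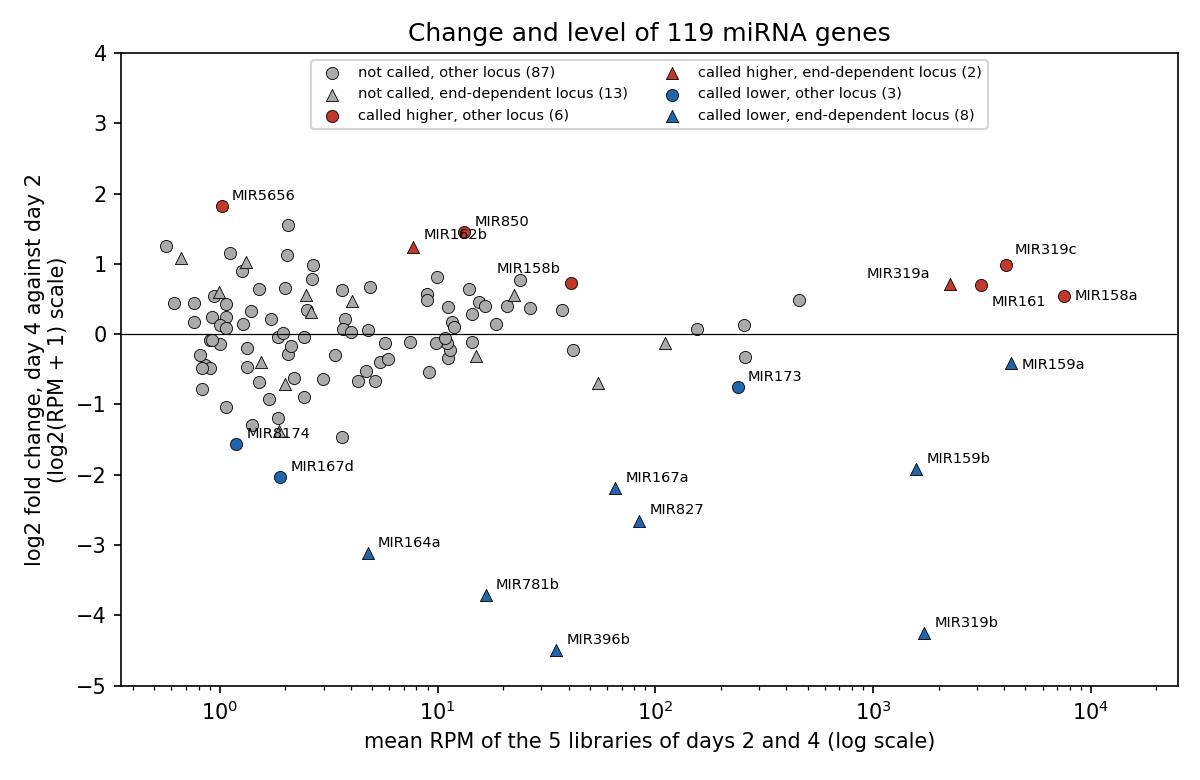
Each point is 1 of the 119 miRNA genes, with its mean RPM over the 5 libraries of days 2 and 4 on a log axis against its log2 fold change on day 4 against day 2. Triangles are loci placed through an end base of the mature sequence, and 8 of the 11 genes called lower (blue) are triangles against 2 of the 8 called higher (red).

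Most of the genes with the largest changes encode a mature sequence that is at a second place of the genome in full or without its last base, mostly at a sister locus. In the TAIR10.1 annotation of RefSeq, all 119 loci have a mature sequence. For 23 of them, 1 mature sequence is found at a single place of the genome only through its last base, or only together with the genomic base that follows it; such loci are called end-dependent here. The sequences below are those of the called loci of this kind, with the sister locus where there is one. They are written 5′ to 3′ as DNA of the coding strand. In the first group the sequence of both loci is the same and the capital is the genomic base that follows the mature sequence.
miR319a (MIR319a, called higher): ttggactgaagggagctccctC
miR319b (MIR319b, called lower): ttggactgaagggagctccctA
miR167a-5p (MIR167a, called lower): tgaagctgccagcatgatctaA
miR167b (MIR167b, not called): tgaagctgccagcatgatctaT
miR164a (MIR164a, called lower): tggagaagcagggcacgtgcaA
miR164b-5p (MIR164b, not called): tggagaagcagggcacgtgcaT
miR781b (MIR781b, called lower): ttagagttttctggatacttaA
miR781a (MIR781a, below the minimum): ttagagttttctggatacttaT
miR162b-5p (MIR162b, called higher): tggaggcagcggttcatcgatcA
miR162a-5p (MIR162a, not called): tggaggcagcggttcatcgatcT
In the second group the capital is the last base of the mature sequence, without which the sequence is found at a second place.
miR159a (MIR159a, called lower): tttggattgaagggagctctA
miR159b-3p (MIR159b, called lower): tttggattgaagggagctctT
miR396a-5p (MIR396a, not called): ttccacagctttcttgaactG
miR396b-5p (MIR396b, called lower): ttccacagctttcttgaactT
miR827 (MIR827, called lower): ttagatgaccatcaacaaacT

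Mature sequences of the other called loci with a known target group show what was measured without that dependence. They are written as RNA with the seed (bases 2 to 8) in capitals.
miR319c (MIR319c, called higher): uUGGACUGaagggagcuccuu
miR158a-3p (MIR158a, called higher): uCCCAAAUguagacaaagca
miR158b (MIR158b, called higher): cCCCAAAUguagacaaagca
miR161.1 (MIR161, called higher): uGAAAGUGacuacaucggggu
miR173-5p (MIR173, called lower): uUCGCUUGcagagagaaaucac
miR167d (MIR167d, called lower): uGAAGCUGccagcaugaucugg
The seed of miR319c is that of miR319a and miR319b, the seed of miR158b is that of miR158a-3p, and the seed of miR167d is that of miR167a-5p and miR167b. miR319c differs from miR319a and miR319b only near its end, as does miR167d from miR167a-5p and miR167b. miR158a-3p and miR158b differ in the first base. The authors kept reads of at least 17 bases, so the counts of these loci can also depend on how reads end, which was not tested.

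The miR319 loci, which target TCP transcription factors that limit cell proliferation in petals and leaves, moved in opposite directions. MIR319b (chromosome 5, 16660469 to 16660640, minus strand) had 2566, 2641 and 3053 RPM on day 2 and 164 and 125 RPM on day 4. This fall, of -4.25 on the log2 scale (SE 0.18, adjusted p 1.44e-15), was the clearest of all by p-value, and its lowest day 2 library was far above both day 4 libraries. MIR319a (chromosome 4, 12352956 to 12353131, plus strand), with the same mature sequence, had 1617, 1848 and 1937 RPM on day 2 and 3099 and 2783 RPM on day 4, a rise of 0.71 (SE 0.14, adjusted p 6.66e-04). Its call was lost in a limma fit of all 13 libraries and in one without an intensity trend (highest adjusted p 0.325).

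MIR319c (chromosome 2, 17029701 to 17029899, plus strand), whose mature sequence is found at a single place even without its last base, rose from 2322, 3056 and 3504 RPM to 6094 and 5491 RPM. This was a change of 0.99 (SE 0.18, adjusted p 1.60e-04) with no overlap. The sum of the 3 loci was 7514 ± 995 RPM (mean ± SD, n = 3) on day 2 against 8879 ± 677 RPM (n = 2) on day 4, and was not called (log2 fold change 0.25, SE 0.15, adjusted p 0.40). Reads of exactly the sequence shared by MIR319a and MIR319b map to several places. Whether such reads were counted is not stated, so the sum need not be the level of the family. The same limit holds for the sums of miR167 and miR164 below. Of the sum of MIR319a and MIR319b, MIR319b made up 58.8 to 61.4% in the day 2 libraries and 4.30 and 5.03% in the day 4 libraries.

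The miR159 loci act on GAMYB-like MYB factors of anther development. MIR159b (chromosome 1, 6220646 to 6220841, plus strand) had 2018, 2356 and 2328 RPM on day 2 and 623 and 559 RPM on day 4. The drop amounted to -1.92 on the log2 scale (SE 0.16, adjusted p 1.44e-09); with the authors' quantile-normalized values it was -0.25 and no longer called (adjusted p 0.754).

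MIR159a, the most abundant locus of the family, went from 4576, 5268 and 4472 RPM to 3671 and 3527 RPM, which passed the threshold narrowly (log2 fold change -0.40, SE 0.14, adjusted p 0.047). The call was lost whenever replicate 2 or 3 of day 2 or either library of day 4 was left out. It was lost in 10 of 17 alternatives in all. The others were no filter, a filter over the 10 inflorescence libraries, only the 5 libraries of days 2 and 4, all 13 libraries, no intensity trend and a replicate block (highest adjusted p 0.347). MIR159c, which is not end-dependent, had 344, 401 and 439 RPM on day 2 and 586 and 516 RPM on day 4. Its adjusted p was 0.052 at a log2 fold change of 0.48, and it was called higher in 4 alternatives, with an adjusted p of 0.048 at a pseudocount of 0.5, 0.028 with a minimum of 10 RPM, 0.036 without day 2 replicate 3, and 1.47e-08 with the quantile-normalized values, where its log2 fold change was 1.47. The share of MIR159b in the sum of MIR159a and MIR159b went from 30.6 to 34.2% on day 2 to 13.7 and 14.5% on day 4. Unlike miR319, the miR159 family was called lower as a sum, from 7401 ± 560 to 4741 ± 196 RPM (log2 fold change -0.64, SE 0.14, adjusted p 0.0028).

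Of 2 member loci of miR396, which restrains the growth-regulating factors (GRFs) of organ size, MIR396b was called lower. It had 42.5, 71.3 and 56.4 RPM on day 2 and 0 and 5.29 RPM on day 4 (log2 fold change -4.49, SE 0.47, adjusted p 3.48e-08). Its sister MIR396a, which differs in the last base of the mature sequence, had 19.1, 16.9 and 13.4 RPM on day 2 and 11.9 and 14.1 RPM on day 4, with overlap and no call (adjusted p 0.60). Their sum fell from 73.2 ± 13.6 to 15.6 ± 5.31 RPM (log2 fold change -2.18, SE 0.26, adjusted p 9.20e-07).

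2 of the 8 members of the auxin list were called, both of miR167, the regulator of ARF6 and ARF8. MIR167a (chromosome 3, 8108072 to 8108209, plus strand) went from 87.3, 115 and 83.9 RPM to 16.2 and 24.7 RPM, so that every day 2 library was more than 3-fold above every day 4 library (log2 fold change -2.19, SE 0.25, adjusted p 1.43e-07). MIR167b, of the same mature sequence, had at most 0.467 RPM on day 2 and 1.08 and 1.76 RPM on day 4 and was not called.

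MIR167d, which is not end-dependent, had 3.73, 2.20 and 3.53 RPM on day 2 and was at 0 in both day 4 libraries (adjusted p 0.0021). Set against a limit of 3 reads over the day 4 libraries together (1.14 RPM), it was at least 2.76-fold lower. The miR167 sum fell from 98.8 ± 16.4 to 21.9 ± 6.47 RPM (log2 fold change -2.14, SE 0.23, adjusted p 2.45e-07). The other members of the list, MIR160a, MIR160b, MIR160c, MIR390a and MIR390b, which act through other auxin response factors or their ta-siRNAs, had log2 fold changes of -0.48 to 0.47 and no call.

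MIR164a, a negative regulator of the CUC1 and CUC2 mRNAs, had 10.3, 5.14 and 8.46 RPM on day 2 and was at 0 in both day 4 libraries (log2 fold change -3.12, SE 0.49, adjusted p 2.54e-05), at least 6.97-fold lower against the same limit. MIR164b, of the same mature sequence, had 1.87, 3.67 and 2.12 RPM and then 1.08 and 1.17 RPM, without a call (adjusted p 0.36). MIR164c, the most abundant of the family at 18.8 ± 5.10 RPM on day 2 and 27.7 ± 5.11 RPM on day 4, was not called either. The family sum was 29.4 ± 4.66 and 28.8 ± 5.04 RPM (log2 fold change -0.02, SE 0.27).

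MIR827, known for the phosphate response through the ubiquitin ligase NLA, had 105, 124 and 152 RPM on day 2 and 15.1 and 24.1 RPM on day 4 (log2 fold change -2.65, SE 0.26, adjusted p 2.23e-08). MIR399b, the other member of the phosphate and sulfate list, had 3.27, 2.20 and 2.82 RPM and then 1.08 and 0 RPM, with an adjusted p of 0.056. MIR781b had 25.7, 23.5 and 31.7 RPM on day 2 and 1.08 and 1.17 RPM on day 4 (log2 fold change -3.71, SE 0.46, adjusted p 7.25e-07), which rests on 1 and 2 estimated reads on day 4. MIR781a and MIR781b overlap on opposite strands of chromosome 1 (7423518 to 7423611 and 7423521 to 7423607), inside the gene AT1G21200. A read placed through its end base still lies inside both loci and can be given to 1 of them by strand alone. The strand setting of the counts is not stated.

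**Figure D2:**
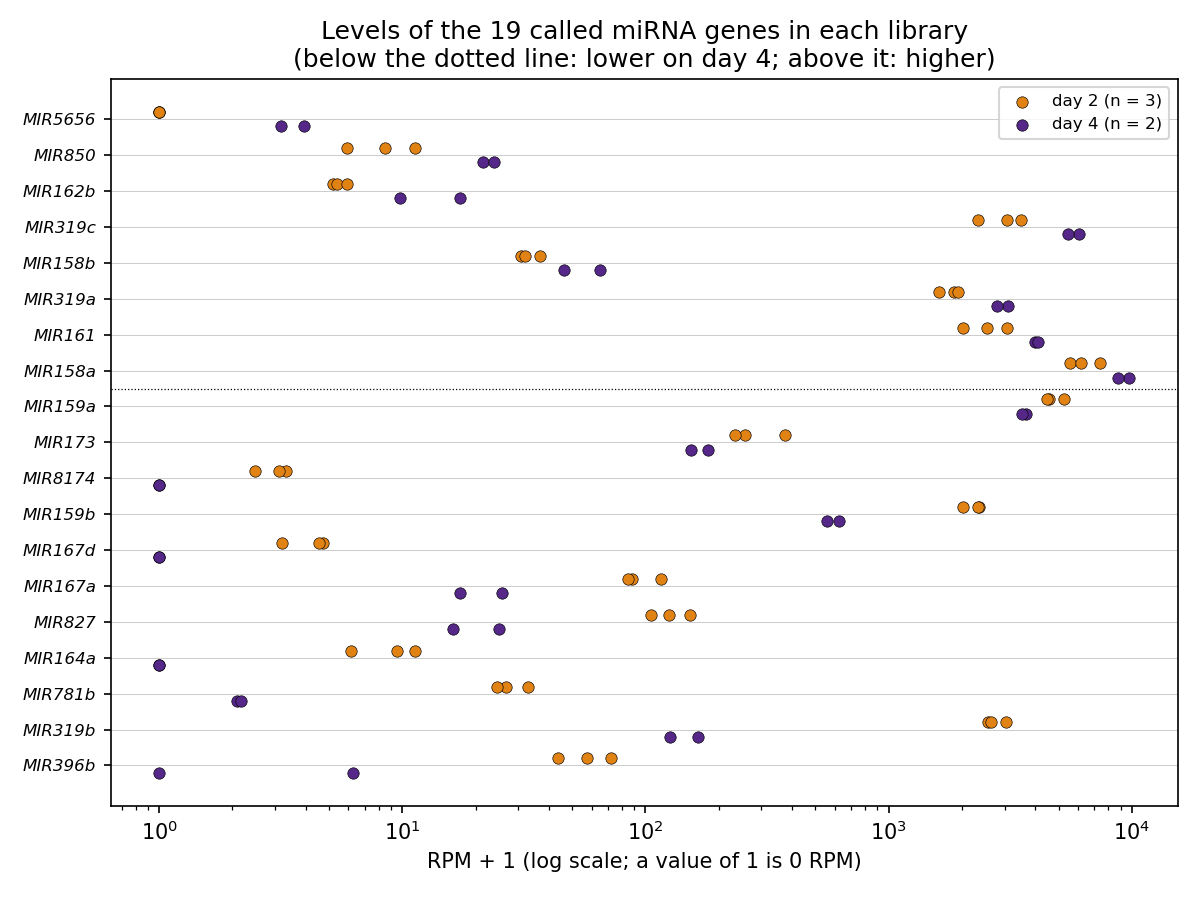
Points are the RPM + 1 of single libraries on a log axis for the 19 called genes, orange for day 2 (n = 3) and purple for day 4 (n = 2), ordered by log2 fold change. The points of the 2 days do not overlap for any of the 19, and the gap is widest for MIR396b, MIR319b and MIR781b.

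All 4 members of the list of PPR targeting and ta-siRNA triggers were called, 3 higher and 1 lower, with a median log2 fold change of 0.62 against 0.05 over all 119 genes, of which 8 were called higher and 11 lower. The list is one of family numbers (miR158, miR161, miR173 and miR400), and MIR390a and MIR390b, which also trigger ta-siRNAs, are counted in the auxin list and were not called. MIR158a, the most abundant miRNA gene in every one of the 5 libraries, went from 5577, 7424 and 6187 RPM to 9746 and 8764 RPM (log2 fold change 0.54, SE 0.14, adjusted p 0.0076). In the quantile-normalized values its top rank gives it the same value in each library and no change. Its paralogue MIR158b had 29.9, 30.9 and 36.0 RPM and then 63.7 and 45.2 RPM (log2 fold change 0.72, SE 0.25, adjusted p 0.047).

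MIR161, which targets mRNAs of pentatricopeptide repeat proteins, went from 2018, 3062 and 2529 RPM to 3999 and 4105 RPM (log2 fold change 0.70, SE 0.16, adjusted p 0.0027). MIR173, which starts ta-siRNA formation at TAS1 and TAS2, moved the other way, from 256, 375 and 231 RPM to 153 and 179 RPM (log2 fold change -0.76, SE 0.23, adjusted p 0.021). In a fit of all 13 libraries or without an intensity trend, MIR158a, MIR158b and MIR173 were not called. MIR158a and MIR158b were also not called without end-dependent loci. MIR158b further lost its call with only the 5 libraries of days 2 and 4 and under median-ratio and trimmed-mean scaling. Without day 4 replicate 1 the calls of MIR158a, MIR158b and MIR173 were lost (adjusted p 0.142, 0.428 and 0.155), that of MIR173 also without day 2 replicate 2 (0.145) and that of MIR158b without day 2 replicate 1 or 2 (0.087 and 0.090). The call of MIR161 was kept without each library, and with the quantile-normalized values the calls of MIR161 and MIR173 were lost (adjusted p 0.213 and 0.21).

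Among the miRNAs that act on the small RNA machinery, MIR162b, of the family that targets DICER-LIKE1 itself, was called higher. Neither of its 2 annotated mature sequences is at a single place of the genome, and the end-dependent one is miR162b-5p. Which of the 2 made up the counts of MIR162b was not tested. Its levels were 4.20, 4.41 and 4.94 RPM on day 2 and 16.2 and 8.81 RPM on day 4 (log2 fold change 1.24, SE 0.39, adjusted p 0.032), and it was no longer called once day 4 replicate 1 was left out (adjusted p 0.386), once replicate 1 or 2 of day 2 was (0.083 and 0.079), or with the quantile-normalized values (0.118). The call of MIR162b was also lost in limma fits with only the 5 libraries of days 2 and 4, with all 13 libraries and without an intensity trend (highest adjusted p 0.533). MIR162a had 0.467, 3.67 and 2.12 RPM and then 3.24 and 2.94 RPM and was not called. MIR403, which targets AGO2, had 61.1, 72.8 and 59.3 RPM on day 2 and 45.3 and 34.1 RPM on day 4, without overlap and with an adjusted p of 0.056. MIR168a, which targets AGO1, was at 11.2 ± 3.71 and 10.4 ± 0.574 RPM, a log2 fold change of -0.05 with a 95% interval of -0.73 to 0.62.

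Of the 68 members in families numbered 400 and upwards, which are mostly young loci of low level, 2 were called higher and 2 lower. MIR850 rose from 7.47, 10.3 and 4.94 RPM to 20.5 and 22.9 RPM (log2 fold change 1.45, SE 0.33, adjusted p 0.0023), and its libraries were well apart. MIR5656, which met the minimum through day 4 alone, was at 0 in all 3 day 2 libraries. It had 2.16 and 2.94 RPM on day 4, from 2 and 5 estimated reads (adjusted p 0.0064). Against a limit of 3 reads over the day 2 libraries together (0.610 RPM) it was at least 4.18-fold higher, and without day 4 replicate 2 the call was lost (adjusted p 0.064). It lies within the gene AT1G05780.

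MIR8174, whose mature sequence is at 7 places of the genome, had 2.33, 1.47 and 2.12 RPM on day 2 and was at 0 on day 4, at least 1.73-fold lower. Its call was lost without either day 4 library (adjusted p 0.097 and 0.065). The most abundant young loci, MIR863 at 248 and 269 RPM and MIR775 at 152 and 159 RPM (means of day 2 and day 4), were not called. The median log2 fold change was 0.32 over the 30 genes of families from 400 to below 1000 and 0.12 over the 38 genes of families 1000 and above.

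No member was called in the lists of phase change (miR156 and miR157, which target SPL factors, 4 members), AP2-like targeting (miR172, 2), HD-ZIP III targeting (miR165 and miR166, 5), SCL targeting (miR170 and miR171, 4), NF-YA targeting (miR169, 2), copper response (miR408, 1) or MYB of flavonoid synthesis (miR858, 2). MIR172d, a repressor of APETALA2, had 49.0, 55.8 and 30.3 RPM on day 2 and 33.5 and 41.7 RPM on day 4, with overlap. Its log2 fold change was -0.22 with a 95% interval of -0.81 to 0.37, which leaves room for a change of either sign. MIR166a, the member of the HD-ZIP III list with the highest mean RPM, had 234, 326 and 282 RPM and then 242 and 204 RPM, with a log2 fold change of -0.32 and an interval of -0.71 to 0.07. None of its annotated mature sequences is at a single place of the genome, so its count does not rank it among the loci of the family. Under median-ratio scaling MIR166a was called lower (log2 fold change -0.49, adjusted p 0.026). With the quantile-normalized values MIR166a and MIR172d turned to 0.47 and 0.31, without a call. The 4 phase change members averaged 0.881 to 9.91 RPM on day 4, and the widest of their intervals, that of MIR156c, ran from -1.94 to 0.09. MIR172a and MIR399a, which the study names, did not reach the minimum. The mature sequence of MIR172a is not at a single place of the genome, so its low count need not be a low level.

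**Figure D3:**
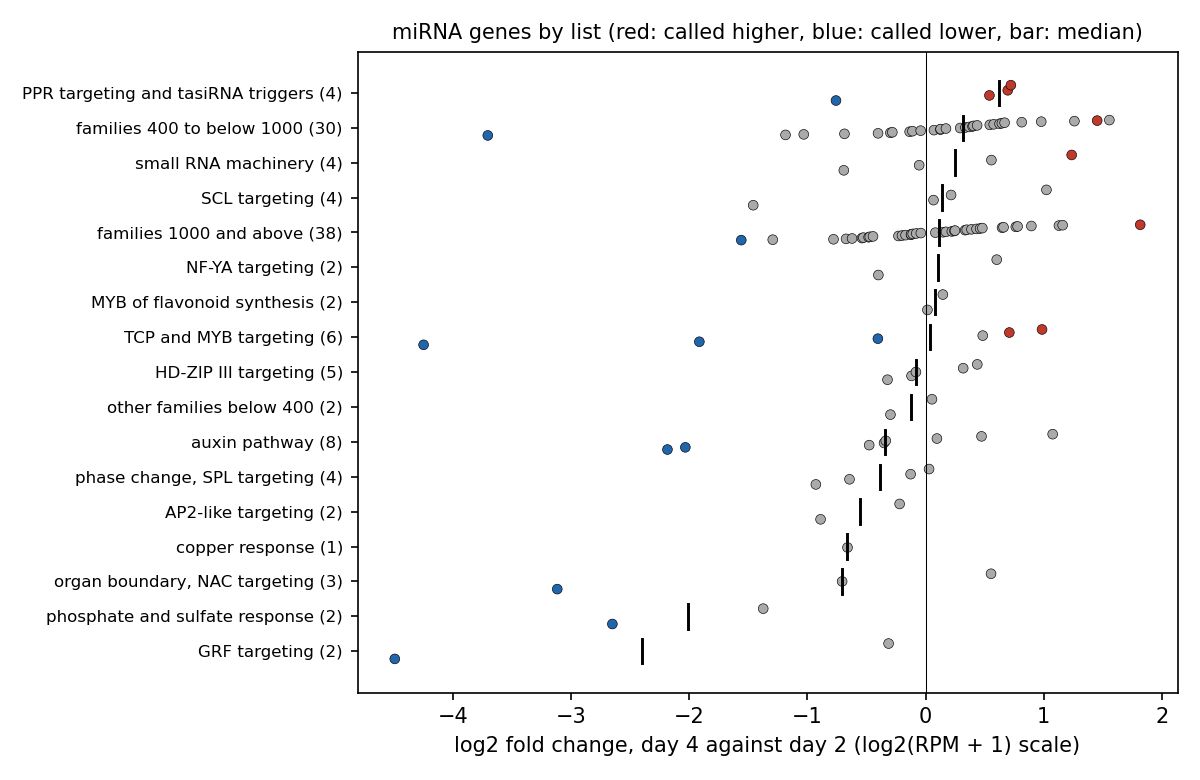
Points are the log2 fold changes of the members of each list on day 4 against day 2, red where called higher, blue where called lower and grey where not called, with the median as a bar and the number of members in brackets. The list of PPR targeting and ta-siRNA triggers has the highest median (0.62) and that of GRF targeting the lowest (-2.40, from 2 loci).

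With the RPM of all loci of a family added up, 4 of 94 families were called higher (4.26%) and 7 lower (7.45%). The higher ones were miR158, miR161, miR850 and miR5656, and the lower ones were miR159, miR167, miR173, miR396, miR781, miR827 and miR8174. Of the 3 families with a called locus and no call as a sum, miR319 and miR164 had log2 fold changes of 0.25 and -0.02, and miR162 had one of 1.11 (adjusted p 0.054). Sums of families with a mature sequence shared by several loci carry the limit given above for miR319. The sum of miR158 rose from 6428 ± 941 to 9310 ± 708 RPM. Its adjusted p was 0.191 with day 4 replicate 1 left out, and 0.058 and 0.062 with day 2 replicates 1 and 3 left out in turn.

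End-dependent loci carried most of the lower calls. Of the 23 end-dependent members, 2 were called higher and 8 lower, with a median log2 fold change of -0.40. Of the other 96, 6 were called higher and 3 lower, with a median of 0.08. The direction went with the base at the end. Among the 7 loci placed by a following A, 4 were called lower and 1 higher (median -2.19), whereas of the 8 placed by a following C or T none was called lower and 1 was called higher (median 0.52). All 3 loci placed by a last T (MIR159b, MIR396b and MIR827) were called lower (median -2.65), against 1 of the 5 placed by another last base (median -0.40). These groups are not independent. MIR319a, MIR167b, MIR164b and MIR162a, placed by C or T, have the mature sequences of MIR319b, MIR167a, MIR164a and MIR162b, placed by A. MIR159a and MIR396a likewise differ from MIR159b and MIR396b in the last base alone.

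In loci with a mature sequence at a single place without such help, the medians were close for these and other bases. Of 35 loci with a mature sequence followed by A, 2 were called higher and 1 lower (median 0.13). Of 61 with one followed by another base, 4 were called higher and 2 lower (median 0.13). Of 29 with a last T, 3 were called higher and none lower (median 0.08), and of 62 with another last base, 4 higher and 2 lower (median 0.09). A locus with 2 mature sequences can be in both groups of a comparison. These counts were chosen after the values were seen and carry no test. Since reads of exactly a shared mature sequence map to several places, the counts of such loci depend on how reads end, and read ends were not analysed here. The part of read ends in these falls was not tested.

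Libraries of the other days give the same genes in the same pair of runs. Day 0, of the run of day 2, and day 8, of the run of day 4, share no library with the comparison. MIR319b was at 3101 RPM on day 0 and 57.7 RPM on day 8, beside 2753 and 145 RPM on days 2 and 4. MIR159b was at 2276 and 608 RPM, beside 2234 and 591 RPM. For MIR781b these means were 28.0 and 1.79 RPM, beside 27.0 and 1.13 RPM. In each of these 3 genes, picked after their values were seen, the levels within a run lay closer together than those across runs. This did not hold for every called gene. MIR173 stood at 229, 287, 166 and 234 RPM on days 0, 2, 4 and 8, and MIR167a at 102, 95.5, 20.4 and 64.0 RPM. The called genes with and without this pattern were not counted, and its cause was not tested.

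**Figure D4:**
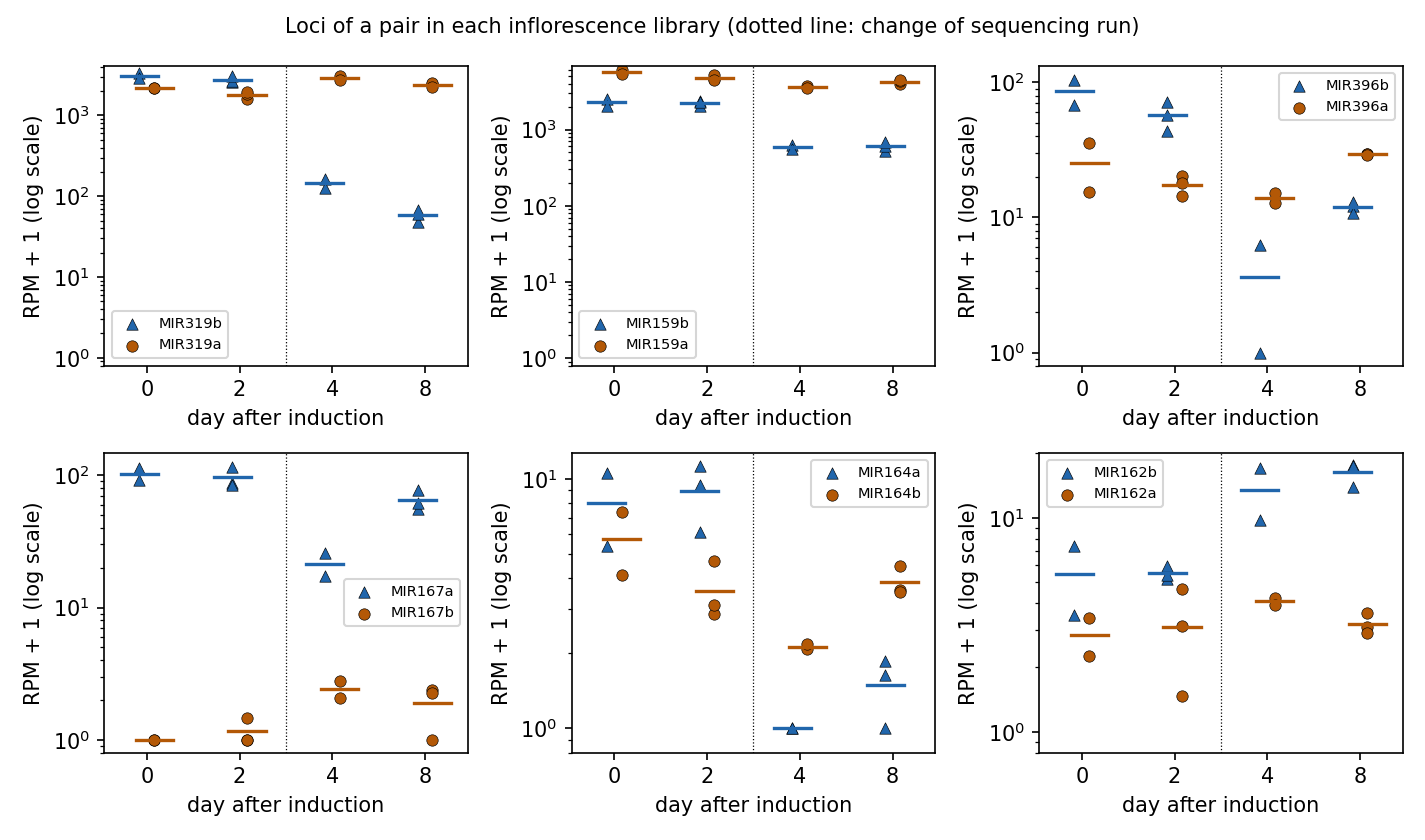
Each panel shows 2 loci of a family with the same or nearly the same mature sequence, as RPM + 1 of each library on a log axis against day after induction, with bars at the mean and a dotted line at the change of sequencing run. MIR319b, MIR159b, MIR396b and MIR164a (triangles) drop at the line. On day 4 MIR319a, MIR159a (itself called lower) and MIR396a (circles) are within 2-fold of their day 2 mean, and MIR164b goes from 2.55 to 1.13 RPM. MIR167a falls from 95.5 RPM on day 2 to 20.4 RPM on day 4 and is at 64.0 RPM on day 8. MIR162b rises from 4.52 RPM on day 2 to 12.5 RPM on day 4.

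Over the 119 genes, the change on day 8 against day 0 had a Pearson r of 0.72 and a Spearman rho of 0.53 with the change on day 4 against day 2. Genes are not independent replicates, and both changes span the same pair of runs. Over the 96 genes that are not end-dependent, r was 0.43. The sign was the same for 80 of the 119 genes and for all 19 called genes, and 15 of the 19 were also called in the same direction on day 8 against day 0. The exceptions were MIR319a, MIR173, MIR5656 and MIR8174. MIR173 was at 229 and 234 RPM on days 0 and 8, a log2 fold change of -0.01.

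To ask which genes changed between days 2 and 4 by another amount than between days 0 and 8, the difference of both changes was tested in the same fit, which holds the step between runs on both sides. 3 genes were above (2.52%) and 4 below (3.36%). Above were MIR319b, MIR164c and MIR4228. MIR319b fell in both, less on day 4 against day 2 (-4.25) than on day 8 against day 0 (-5.74), with a difference of 1.49 (SE 0.26, adjusted p 9.44e-04). MIR164c stood at 30.6, 18.8, 27.7 and 9.03 RPM on days 0, 2, 4 and 8 (difference 2.21, SE 0.44, adjusted p 0.0022), so that its log2 fold change was 0.55 on day 4 against day 2 and -1.66 on day 8 against day 0. MIR4228 stood at 16.4, 15.0, 13.5 and 3.70 RPM (difference 1.86, SE 0.55, adjusted p 0.046).

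Below were MIR167a, MIR824, MIR853 and MIR863. For MIR853 the means were 0.625, 1.58, 0.294 and 4.15 RPM on days 0, 2, 4 and 8 (difference -2.80, SE 0.68, adjusted p 0.0096). They rest on 4, 2 and 2 estimated reads in the day 2 libraries and 0 and 1 in the day 4 libraries. MIR167a stood at 102, 95.5, 20.4 and 64.0 RPM on days 0, 2, 4 and 8 (difference -1.51, SE 0.35, adjusted p 0.0070), which places day 4 below all other days. MIR824, which targets the MADS gene AGL16, stood at 20.5, 18.1, 24.7 and 94.7 RPM (difference -1.78, SE 0.40, adjusted p 0.0070), and MIR863 at 253, 248, 269 and 537 RPM. The count below was 0 without day 4 replicate 1 and 10 without day 4 replicate 2, and the number above stayed between 2 and 3. MIR172d, with a difference of 1.30, had an adjusted p of 0.057.

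**Figure D5:**
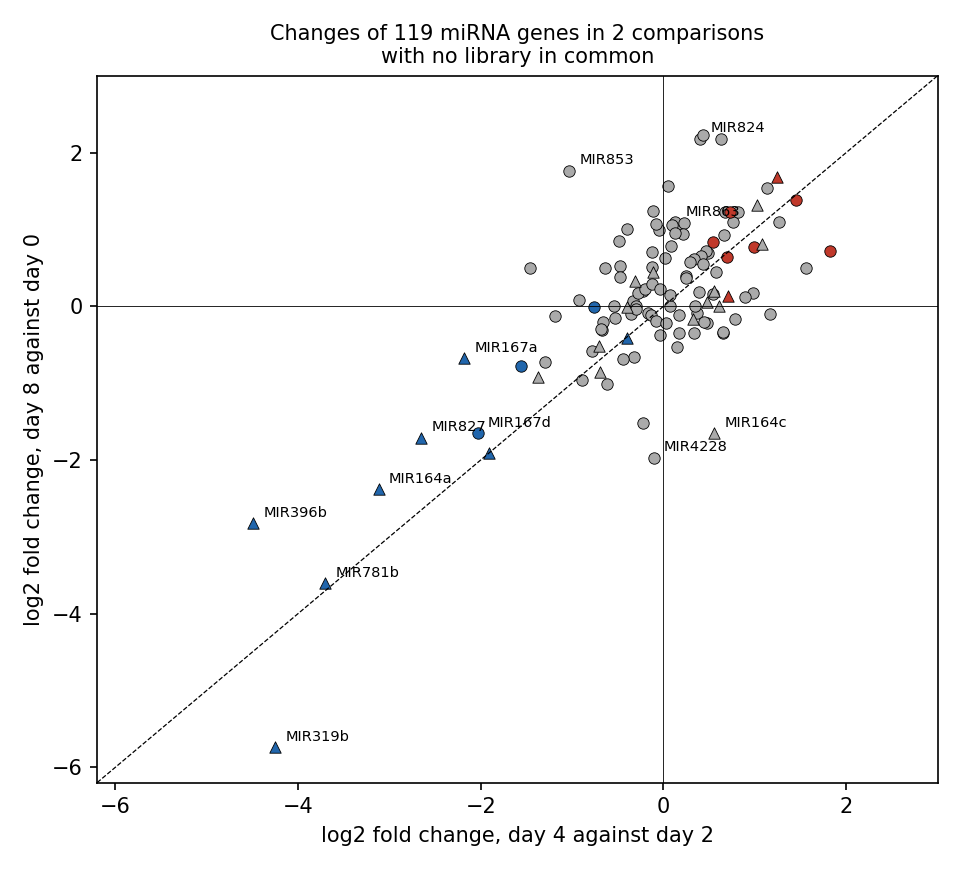
Each point is 1 of the 119 miRNA genes, with its log2 fold change on day 4 against day 2 and on day 8 against day 0, coloured red or blue where called higher or lower on day 4 and drawn as a triangle where end-dependent. The dashed line marks equal changes; the called genes lie on 1 side of 0 in both, and MIR167a, MIR824, MIR853 and MIR863 are above the line by more than their error.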

How the data were processed

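The authors trimmed small RNA reads of at least 17 bases with Trim Galore. STAR placed them on TAIR10 (at most 10 places per read, at least 16 matching bases) and gave the counts per miRNA gene. No tool versions are stated for these reads in the sources used here. The deposited values are RPM, and a second deposited table holds RPM after quantile normalization, which served as an alternative. 3 columns of libraries that match no sample were not used, 2 of them named as repeats of day 2 libraries in the run of day 4. The kits differ between the labels (RNeasy Plant, TruSeq Stranded Total RNA) and the study's methods. The run sheet gives no measurement, but a run name (unit: other) at the first library of each block in the deposited workbook, which was carried down to the libraries after it.

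Depth was estimated from the smallest step between low RPM values. The estimate rests on 98 to 108 low values a library, so no count model was run. Day 4 was compared with day 2 by limma 3.58.1 (R 4.3.3) on log2(RPM + 1), with eBayes trend, over 10 inflorescence libraries with 1 term per day and Benjamini-Hochberg adjustment over 119 genes. Values are mean ± SD. The test was tried on simulated data. Replicates differed by more than sampling noise (chi-square per degree of freedom 2.54 to 7.76), so each library was counted. The labels do not say that replicates are separate plants, and p-values measure the spread between libraries. Same-numbered libraries of the 2 days deviated together only weakly (r 0.006 and 0.12) and were not taken as pairs.

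Loci were matched to RefSeq TAIR10.1, 177 by miRBase identifier and 148 by name, and mature sequences were searched on both strands with Python 3.11.15. Genes named in the text are all called genes, the 10 most abundant, other member loci of their families and those the study names; further genes were named after their values were seen. The members, 14 lists by family number and the tests were chosen with earlier results of these data known.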

Additional observations from a re-analysis of the deposited data

How the results depend on the processing

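Across 18 alternatives the fit made 7 to 23 calls. MIR319b, MIR396b, MIR781b, MIR164a, MIR827, MIR167a, MIR167d and MIR850 were called in each alternative that tested them, and no called change turned its sign. The 8 higher calls were 5 in a fit of all 13 libraries, 3 without an intensity trend, 4 without end-dependent loci, and 5 to 11 without 1 library; the 11 lower calls were 3 without end-dependent loci and 9 to 11 without 1 library. Without the trend 10 of 13 calls were lower, 76.9% against 57.9%, and MIR319c, MIR319a and MIR161 were no longer called (adjusted p 0.053, 0.090 and 0.127). The lower families were 11 under median-ratio and under trimmed-mean scaling. Median-ratio scaling moved the median log2 fold change from 0.05 to -0.08. The genes above in the difference of changes were 5 under either scaling and 1 without the trend, and those below were 1 without the trend, 7 with the replicate block and 0 to 10 without 1 library. The replicate block gave 9 higher and 12 lower genes, 18 of them shared with the 19 calls. The cause of these shifts was not tested. Where leaving out a library left day 4 with 1, that library was assumed to vary like the others. With 926300 to 2142752 reads a library, changes of genes of a few RPM were not detectable unless large.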
